A study of Homo sapiens with 519 samples.

Results

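The nuclear-encoded respiratory chain genes are the genes of the cell nucleus that encode subunits of complexes I to V of mitochondrial oxidative phosphorylation, and they were followed here in SK-N-BE(2) neuroblastoma cells across drug treatments. Members were taken by symbol alone, with no measured value: NDUFA, NDUFB, NDUFC, NDUFS and NDUFV names for complex I, SDHA to SDHD for complex II, UQCR names for complex III, COX4 to COX8 names for complex IV and ATP5 names for complex V, leaving out symbols that end in P and a number, the form used for pseudogenes. The 4 deposited count tables hold 83, 83, 84 and 84 members among 44267, 25559, 57728 and 25392 genes. They amount to 86 distinct genes under current symbols, of which 81 are in all 4 tables. Complex I has 38 members, complex II has 4, complex III has 9, complex IV has 14 and complex V has 18 or 19. In the tables with 83 members, complex V counts ATP5S and ATP5SL by symbol. Their current symbols, DMAC2L and DMAC2, are no longer ATP synthase names, so complex V there includes genes that may not encode its subunits. In the tables with 84 members, complex V counts ATP5IF1 by symbol, which encodes an inhibitor protein of the enzyme. Complex V is thus not the same set of genes in every table. The rule leaves out COX4I1, CYC1, CYCS and NDUFAB1, which belong to the same pathway, and all 13 mitochondrially encoded subunits. NDUFA4, now assigned to complex IV, is counted with complex I by its symbol, and UQCRHL is a near-identical copy of UQCRH, so reads may have been split between them and their values are uncertain.

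SK-N-BE(2) is an established human neuroblastoma line with amplified MYCN, and all libraries share that genotype, so every value below describes 1 cell line. The study looked for analogs of isopomiferin and for compounds that act like known inhibitors of the kinase CK2. Its first experiment treated cells for 24 h with 90 compounds at 1 dose each on 2 duplicate plates and has 192 libraries, 8 of them from DMSO wells and 4 from control wells labelled as having no DMSO. The second experiment gave 15 compounds at 2 doses for 6 h and 24 h (3 libraries each, 6 libraries labelled Control at each time), and the third gave 29 treatments for 24 h (3 libraries each, 9 DMSO wells). A further set of deeply sequenced TruSeq libraries covers isopomiferin (Isop) and pomiferin (Pom) at 3 and 10 µM and the null analog (Null) at 10 µM, for 3 h and 6 h, with 3 libraries per group and 3 DMSO libraries at each time; 3 mock libraries of this set are not analysed here. The labels give the doses of the second experiment in mM and most doses of the first and the third without a unit, and they are printed as given. The labels do not say whether the libraries of a group came from separate cultures, so every p-value below measures only the spread between these libraries, which may be technical.

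Electrons enter the respiratory chain from NADH at complex I and from succinate at complex II, pass through ubiquinone to complex III and by cytochrome c to complex IV, where oxygen is reduced. Complexes I, III and IV pump protons, and complex V, the ATP synthase, uses the gradient to make ATP. Complex II is encoded by nuclear genes alone, while the other complexes combine nuclear subunits with a few that the mitochondrial genome encodes. The nuclear genes lie scattered over the chromosomes, and the transcription factors NRF1, GABP (an ETS family factor) and YY1 are known to act at many of their promoters. MYC family proteins, MYCN among them, are known to drive genes of mitochondrial biogenesis.

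RefSeq (GRCh38.p14) gave a promoter, from 250 bases before to 50 bases after the start, for 70 of the 86 members. On either strand, 13 of the 70 (18.6%) hold the letters GCATGCGC, the core bound by NRF1, against 3.27% of all 27305 promoters of that table and 5.20% of the 12139 that belong to genes tested in the TruSeq set. CCGGAAG, the ETS core, is in 19 (27.1%, against 10.7% and 17.8%), and AAGATGGCG, the YY1 core, is in 8 (11.4%, against 1.85% and 3.57%). At least 1 of the 3 is in 30 of the 70 (42.9%, against 14.6% and 24.3%). TGACGTCA, the CREB letters, are in 5 promoters (7.14%, against 1.98% and 3.21%). CACGTG, an E-box of the kind MYC proteins bind, is in 7 (10%, against 7.4% and 9.81%). TATAAA is in 7 (10%, against 11.95% and 6.2%). The E-box share was close to that of the tested genes. The CREB and E-box letters are their own reverse complements and the NRF1 and ETS letters can overlap theirs, so 1 site can be read on both strands. The shares count promoters, so a site read on both strands counts once. These are matches of letters and not measured binding. The promoters of 5 members on which the results below turn are printed 5′ to 3′ on the strand of the gene, with NRF1, ETS and YY1 letters in capitals. NDUFB4, chr3:120596086-120596385 on the plus strand, fell early with pomiferin, and its promoter has NRF1 letters. SDHD, chr11:112086623-112086922 on the plus strand, has NRF1 and ETS letters and was low with flavopiridol. UQCR11, chr19:1605413-1605712 on the minus strand, and COX8A, chr11:63974370-63974669 on the plus strand, have ETS letters and were high with flavopiridol. ATP5MC1, chr17:48892537-48892836 on the plus strand, had the largest decrease with pomiferin, and its promoter holds none of the 3 motifs in capitals. It does hold the CREB letters and the E-box letters, and the UQCR11 promoter holds the E-box letters. These are left in small letters.
NDUFB4: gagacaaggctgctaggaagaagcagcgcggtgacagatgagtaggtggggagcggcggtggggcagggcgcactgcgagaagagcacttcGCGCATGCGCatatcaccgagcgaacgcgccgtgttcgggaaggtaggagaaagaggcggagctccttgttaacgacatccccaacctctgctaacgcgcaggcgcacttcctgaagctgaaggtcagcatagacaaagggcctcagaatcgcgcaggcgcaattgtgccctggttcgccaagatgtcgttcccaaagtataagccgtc
SDHD: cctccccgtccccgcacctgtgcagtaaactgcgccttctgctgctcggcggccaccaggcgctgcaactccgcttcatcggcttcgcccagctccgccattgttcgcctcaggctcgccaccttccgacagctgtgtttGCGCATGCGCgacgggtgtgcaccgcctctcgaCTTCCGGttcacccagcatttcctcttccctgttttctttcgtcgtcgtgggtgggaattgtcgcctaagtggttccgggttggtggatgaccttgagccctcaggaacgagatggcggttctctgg
UQCR11: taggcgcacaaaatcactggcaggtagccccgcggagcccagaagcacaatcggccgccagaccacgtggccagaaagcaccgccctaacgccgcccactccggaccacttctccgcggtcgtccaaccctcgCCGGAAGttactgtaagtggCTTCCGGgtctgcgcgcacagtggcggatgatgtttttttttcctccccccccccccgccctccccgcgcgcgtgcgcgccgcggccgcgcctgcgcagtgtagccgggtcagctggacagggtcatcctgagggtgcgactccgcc
COX8A: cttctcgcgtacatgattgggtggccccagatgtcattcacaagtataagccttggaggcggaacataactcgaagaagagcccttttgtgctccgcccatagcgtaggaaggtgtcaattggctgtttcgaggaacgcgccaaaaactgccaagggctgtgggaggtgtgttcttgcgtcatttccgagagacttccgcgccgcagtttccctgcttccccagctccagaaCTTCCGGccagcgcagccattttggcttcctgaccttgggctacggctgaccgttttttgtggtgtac
ATP5MC1: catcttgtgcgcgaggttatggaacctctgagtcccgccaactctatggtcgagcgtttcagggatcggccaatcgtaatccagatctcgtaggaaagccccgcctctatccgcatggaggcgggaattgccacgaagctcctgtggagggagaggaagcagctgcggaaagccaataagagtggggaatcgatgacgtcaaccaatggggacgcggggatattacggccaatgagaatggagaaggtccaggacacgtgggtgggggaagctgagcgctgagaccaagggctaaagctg

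The first experiment has between 38670 and 3958909 counts in a library, with a median of 1790617, and the second between 608491 and 1901416. Libraries of the third hold 706208 to 5263249 counts and TruSeq libraries 17209306 to 33280770. All 9 neuroblastoma marker genes had a control median above 1 CPM (counts of a gene scaled to a common library total) in the third experiment and the TruSeq set, and 8 of 9 did in the second. Of 13 markers of other cell types, 4 to 5 had a control median above 1 CPM. After a filter on low counts, 77 members were tested in each of the second and the third experiments and the TruSeq set, and 78 in the first. The members left out, such as COX6A2, COX6B2, COX7A1, COX7B2 and COX8C, are tissue-restricted isoforms or rarely read copies, and nothing is said of them here.

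Pomiferin, a prenylated isoflavone of the Osage orange, gave the lowest mean over the respiratory chain members among the 29 treatments of the third experiment. After 24 h at dose 10, 54 of 77 tested members were lower than in the DMSO wells by edgeR's quasi-likelihood test at a Benjamini-Hochberg adjusted p below 0.05, and none was higher. Over all 15596 genes tested, 15.1% were called lower. The median log2 change of the members was −0.81, against −0.05 for all genes, and 72 of 77 members were below 0, against 52.5% of all genes. Most members (71 of 77) are among the most highly read genes, the top 25%, whose median was −0.08. These are bulk RNA measurements, in which fewer cells of a type and less RNA per cell cannot be told apart. Genes that mark neuroblastoma moved in the same libraries: 8 of 9 fell, with a median of −2.54, and 3 of 6 tested markers of other cell types fell, with a median of −0.88. The median total count was 2398860 in the pomiferin libraries and 4283540 in the DMSO wells. The part of these shifts in the result was not tested.

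By complex, complex IV fell in 9 of 9 members and complex V in 16 of 18, complex I fell in 24 of 37 and complex III in 5 of 9, while no member of complex II (0 of 4) passed the test. The mean of log2 CPM over the members of a complex, centred on the DMSO wells, was −0.94 ± 0.09 for complex V (SD, n = 3), −0.78 ± 0.16 for complex I, −0.70 ± 0.21 for complex IV, −0.48 ± 0.05 for complex III and −0.38 ± 0.44 for complex II. Complex II is read through 4 genes only, and its DMSO wells alone ran from −0.47 to 0.56. The mean of the 13 mitochondrially encoded subunits was −0.29 ± 0.08, with 6 lower by the test, and that of ribosomal protein genes was −0.14 ± 0.15.

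The deepest fall was in ATP5MC1, 1 of 3 genes for the same proton-conducting c subunit of ATP synthase. ATP5MC1 stood at 30.04, 35.9 and 37.0 CPM with pomiferin at 10, against 177 to 295 CPM (median 219) in the 9 DMSO wells. The groups did not overlap, and the log2 change was −2.67 ± 0.22 (standard error, adjusted p = 2.26e-17). Its sister gene ATP5MC3 was at 103, 116 and 134 CPM against 241 to 347 CPM (median 312), a log2 change of −1.39. ATP5MC2, the remaining c-subunit gene, had a log2 change of −0.59 and also passed the test. The 3 genes encode the same mature protein, and whether their changes differ was not tested. In the catalytic head of the enzyme, ATP5F1B, the beta subunit, was at 229, 275 and 285 CPM against 383 to 713 CPM and fell by 0.88 ± 0.20 on the log2 scale (adjusted p = 0.00018). ATP5F1A, the alpha subunit that alternates with it in the same ring, changed by −0.24 and did not pass (adjusted p = 0.24). ATP5IF1, an inhibitor protein that stops the enzyme from running backwards, was at 97.0, 112 and 115 CPM against 143 to 227 CPM and fell by 0.86 ± 0.15.

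In complex I, NDUFB10 and NDUFB7, accessory subunits of the membrane arm, fell furthest among the members whose groups did not overlap. NDUFB10 was at 31.6, 33.5 and 35.5 CPM against 108 to 153 CPM (median 120), a log2 change of −1.89 ± 0.19 (adjusted p = 1.19e-13). NDUFB7 was at 20.5, 23.2 and 35.01 CPM against 55.6 to 90.3 CPM, a log2 change of −1.47 ± 0.18. NDUFB6, a further membrane-arm subunit, was at 448, 500 and 550 CPM against 1173 to 1425 CPM. All of the pomiferin wells lay below all DMSO wells for these 3 genes. Of the 7 core complex I members, those that carry the cofactors and have bacterial relatives, 3 fell, with a median of −0.51. NDUFV1, which binds NADH, was at 19.4, 22.1 and 22.3 CPM against 29.99 to 53.2 CPM and fell by 0.95 ± 0.25. NDUFS1, the largest subunit of the electron-input module, changed by −0.12 and did not pass. NDUFV2 has a fitted change of −2.52 ± 0.84 (adjusted p = 0.0154) from few reads: its DMSO wells ran from 0.4 to 16.8 CPM and its pomiferin wells from 0 to 5.0 CPM, so the groups overlapped.

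In complex III the small subunits fell and the large ones did not pass. UQCRQ, a small subunit of the membrane part, was at 267, 326 and 413 CPM against 785 to 1085 CPM (median 961), a log2 change of −1.49 ± 0.27 (adjusted p = 4.19e-06), with no overlap. UQCR10, UQCR11, UQCRH and UQCRB changed by −1.01, −0.85, −0.70 and −0.45 and passed. The core protein UQCRC1 changed by −0.07 and the iron-sulfur subunit UQCRFS1 by −0.27 (adjusted p = 0.19). In complex IV, COX5A, which sits on the matrix side, was at 132, 192 and 217 CPM against 325 to 448 CPM and fell by 1.00 ± 0.13, while COX6C was at the smaller end with −0.42 ± 0.16 (adjusted p = 0.038). In complex II, SDHA, the flavoprotein that oxidises succinate, was at 39.1, 48.5 and 50.4 CPM against 27.3 to 59.0 CPM. The SDHA groups overlapped, and the change of −0.02 had a 95% interval from −0.38 to 0.35. SDHB, the iron-sulfur subunit, changed by −0.54 (adjusted p = 0.067). The membrane anchors SDHC and SDHD, which were named after their values were seen, changed by −0.94 ± 0.43 and −0.12 and did not pass.

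**Figure D1:**
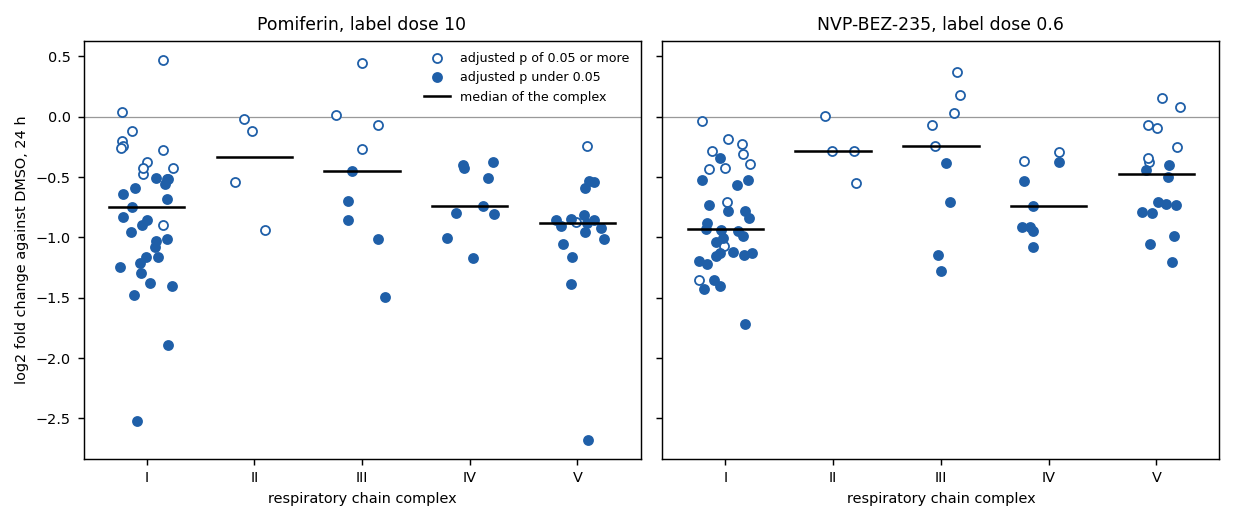
Log2 change of each tested member against the DMSO wells of the third experiment, by complex, for pomiferin at dose 10 (left) and NVP-BEZ-235 at dose 0.6 (right). Filled points passed the test, open points did not, and lines are medians. With pomiferin every point of complexes IV and V is below 0 and ATP5MC1 is the lowest at −2.67, whereas with NVP-BEZ-235 complex I holds the lowest member, NDUFS6 at −1.72.

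Isopomiferin, an isomer of pomiferin and the compound whose analogs were sought, lowered 43 of 77 members at dose 15 after 24 h and raised none, where 9.43% of all genes were called lower. The median of the members was −0.55 and that of all genes was −0.00. Complex IV fell in 8 of 9 members, complex V in 12 of 18, complex III in 6 of 9 and complex I in 17 of 37, and complex II again in 0 of 4. NDUFS5, an intermembrane-space subunit of complex I, was at 145, 149 and 208 CPM against 328 to 410 CPM in the DMSO wells, a log2 change of −1.09 ± 0.13 (adjusted p = 5.37e-10). ATP5MC1 was at 63.7, 113 and 127 CPM and fell by 1.11 ± 0.19. ATP5F1E, a small subunit of the central stalk, was at 932, 1114 and 1270 CPM against 1822 to 2604 CPM. For each of these 3 genes the wells with isopomiferin lay below all 9 DMSO wells. NDUFB6 and ATP5MC3 fell by 0.94 each. The neuroblastoma markers were lower in 6 of 9 genes (median −1.41), and their part in the result was not tested.

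The means over all tested members were ordered by dose for both compounds. Pomiferin at 1, 3.3 and 10 gave −0.26 ± 0.12, −0.54 ± 0.11 and −0.75 ± 0.15 (SD, n = 3 each), and isopomiferin at 1, 5 and 15 gave −0.11 ± 0.08, −0.27 ± 0.09 and −0.53 ± 0.15. The 9 DMSO wells ran from −0.09 to 0.17. ATP5MC1 followed the same order with pomiferin, at 77.2 to 104 CPM, then 51.8 to 90.0 CPM, then 30.04 to 37.0 CPM, and the libraries of the lowest dose were already below all DMSO wells. The middle and lowest doses overlapped, and the highest dose did not overlap with either. The doses of the 2 compounds differ, so no comparison was made between them here.

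**Figure D2:**
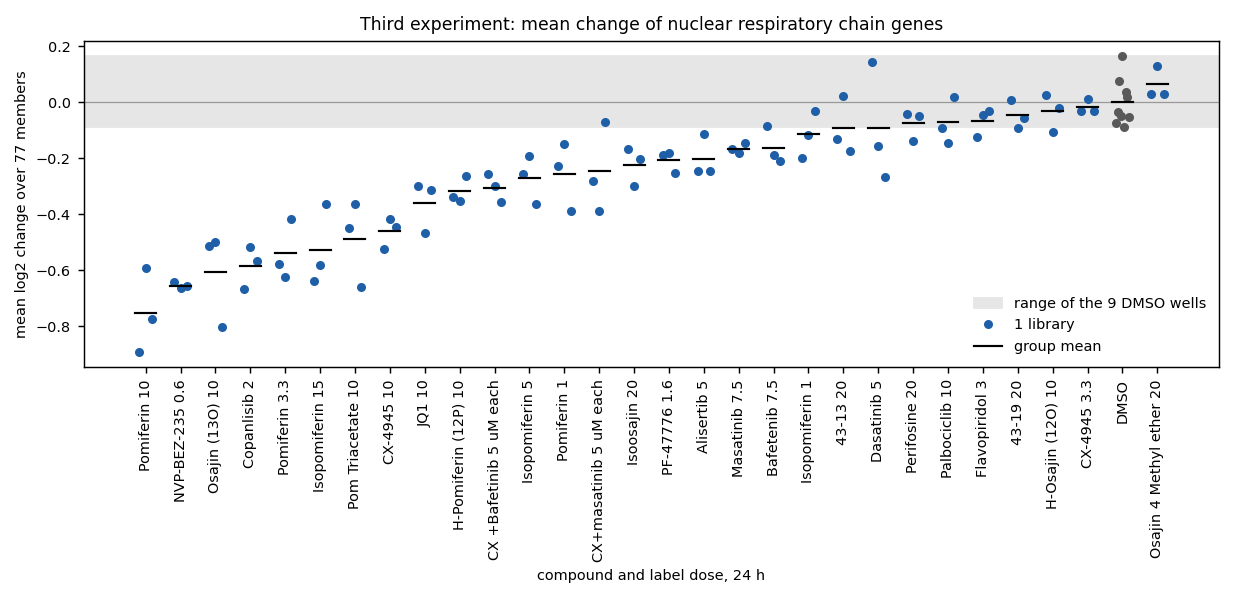
Mean log2 change over the 77 tested members against the DMSO wells for every library of the third experiment (points), with group means as lines, treatments in order of their mean and the range of the 9 DMSO wells in grey. Pomiferin at 10 is at −0.75 and NVP-BEZ-235 at −0.66, and the highest treatment, Osajin 4 Methyl ether at 20, is at 0.06, within the DMSO range.

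Pomiferin was compared with 4 related compounds at the same dose and time, which makes 4 pairs. P-values were adjusted over all genes in each pair, and the pairs share the pomiferin libraries. Against osajin, which has a hydroxyl group fewer on its B ring, pomiferin had 7 of 77 members lower, where 2.77% of all genes were, and 1 higher. ATP5MC1 was at 87.9, 126 and 138 CPM with osajin, above all pomiferin wells, a log2 difference of −1.78 ± 0.24 (adjusted p = 5.57e-08). NDUFB10, NDUFB7, ATP5F1B and NDUFA7 were lower with pomiferin by 1.06, 1.00, 0.74 and 0.71 on the log2 scale, and NDUFB4 was higher by 0.66 ± 0.17. The median difference over the members was −0.10, and the 95% interval of a single member spanned 0.838 log2 units at the median, so that smaller differences between the pair were not resolved for most members. The mean over members with osajin alone was −0.61 ± 0.17.

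Against Pom Triacetate, in which the hydroxyl groups carry acetyl groups, 4 of 77 members were lower with pomiferin, where 1.25% of all genes were, and none was higher. They were ATP5MC1, NDUFB10, NDUFA7 and NDUFB6, with log2 differences of −1.28 ± 0.24, −0.95, −0.58 and −0.54. The median interval of a member spanned 0.830 units and the median difference was −0.24. Against H-Pomiferin, 22 of 77 members were lower with pomiferin, where 3.69% of all genes were, and 1, NDUFA10, was higher (0.92 ± 0.27). ATP5MC1 was at 81.0, 87.7 and 109 CPM with H-Pomiferin, a log2 difference of −1.43 ± 0.24. NDUFB6 and NDUFC1 differed by −1.04 and −1.02. Against H-Osajin, 49 of 77 members were lower with pomiferin, where 11.4% of all genes were. ATP5MC1 was at 165, 168 and 188 CPM with H-Osajin, in or near the DMSO range, a log2 difference of −2.34 ± 0.24, and the mean over members with H-Osajin was −0.03 ± 0.07. In the fit over all groups ATP5MC1 was thus lower with pomiferin than with each of the 4 compounds. The counts for H-Pomiferin, Pom Triacetate and osajin depended on single libraries: the count for H-Pomiferin was 11 without pomiferin replicate 1, 13 without pomiferin replicate 3 and 13 without H-Pomiferin replicate 3. That for Pom Triacetate was 2 without Pom Triacetate replicate 2, and that for osajin was 4 without pomiferin replicate 1. Fitted on the compared libraries alone, the 3 counts were 8, 0 and 2. ATP5MC1 therefore did not pass against Pom Triacetate in that fit, nor after all libraries were thinned to the smallest total.

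The lower levels with isopomiferin were also measured in the second experiment, with its own controls. At 10 mM by the label and 24 h, 29 of 77 members were lower and none higher, where 8.4% of all genes were called lower, with a member median of −0.43 against −0.05 for all genes. Complex V fell in 9 of 17 members, complex IV in 5 of 9, complex I in 13 of 38, complex III in 2 of 9 and complex II in none. ATP5G1, the older symbol of ATP5MC1, was at 106, 128 and 134 CPM against 270 to 324 CPM in the 6 control libraries and fell by 1.27 ± 0.17 (adjusted p = 1.42e-09). NDUFB1, a membrane-arm subunit, was at 41.5, 42.9 and 56.7 CPM against 88.1 to 143 CPM, and NDUFB10 at 63.6, 66.8 and 92.5 CPM against 150 to 183 CPM. The groups did not overlap for these 3 genes. SDHA changed by −0.62 ± 0.34 and did not pass (adjusted p = 0.22). Of 74 members tested in both experiments, 41 were lower in the third and 29 in the second, and 24 were lower in both, which is 58.5% of the first list and 82.8% of the second. The second share stands beside the 55.4% of all 74 that were lower in the third experiment. Over the 9806 genes tested under 1 symbol in both experiments, 11.6% were lower in the third, and 504 were lower in both, which is 44.4% and 60.2% of the respective lists. At 6 h no member passed (0 of 77, where 1.3% of all genes were called higher or lower), and 8 members had an unadjusted p below 0.05. DESeq2 called 1 member lower there, and the edgeR count was 1 without isopomiferin replicate 2, without control replicate 1 and without control replicate 3. The count of 29 at 24 h was 18, 15 and 16 when each isopomiferin library was left out in turn. Neuroblastoma markers were lower in 7 of 8 genes at 24 h (median −1.44), and their part in the result was not tested.

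In the first experiment isopomiferin at 15 gave member means of −0.35 and −0.62 on the duplicate plates, where the 8 DMSO wells ran from −0.08 to 0.08. ATP5G1 was at 77.1 and 53.0 CPM, against 122 to 280 CPM in the DMSO wells. Of 78 tested members, 67 were below 0, against 54.1% of all genes. The mean of the mitochondrially encoded subunits was near 0 in the same libraries (−0.07 and −0.00).

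The TruSeq libraries are deeper and cover the early hours. After 6 h at 10 µM, pomiferin had lowered 30 of 77 members, where 15.4% of all genes were called lower, and raised none. The changes were small, with a member median of −0.12 and an all-gene median of −0.01. Complex V fell in 9 of 18 members, complex IV in 5 of 9, complex II in 2 of 4, complex I in 12 of 38 and complex III in 2 of 8. ATP5MC1 was at 58.2, 59.3 and 61.3 CPM against 76.1, 79.1 and 82.0 CPM with DMSO, a log2 change of −0.41 ± 0.06 (adjusted p = 3.98e-06). ATP5MC3 was at 156, 161 and 172 CPM against 198, 205 and 208 CPM, a log2 change of −0.32 ± 0.04 (adjusted p = 2.83e-07). NDUFB4, whose promoter with NRF1 letters is printed above, was at 74.7, 82.0 and 84.6 CPM against 96.9, 102 and 107 CPM. In these 3 genes every pomiferin library was below every DMSO library. NDUFV2 and ATP5MF fell by 0.34 and 0.30, and SDHA and SDHD fell by 0.15 and 0.16. Of 76 members tested here and in the third experiment, 54 were lower after 24 h and 30 after 6 h, and 26 were lower in both, which is 48.1% of the first list and 86.7% of the second. The second share stands beside the 71.1% of all 76 that were lower after 24 h. Over the 12763 genes tested in both, 16.7% were lower after 24 h, and 1050 were lower in both, which is 49.25% and 48.05% of the respective lists. The count of 30 was 19 without DMSO replicate 1, 18 without pomiferin replicate 1 and 19 without pomiferin replicate 2. Neuroblastoma markers were lower in 7 of 9 genes and higher in 1, with a median of −0.32, and their part in the result was not tested.

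Isopomiferin at 10 µM and 6 h lowered 8 of 77 members and raised none, where 11.9% of all genes were called lower, so the share of members, 10.4%, was no larger than the background. ATP5MC1 was at 56.7, 62.6 and 68.7 CPM, below all DMSO libraries, and fell by 0.34 ± 0.06 (adjusted p = 7.26e-05). The count was 5 without DMSO replicate 1, 5 without DMSO replicate 3, 5 without isopomiferin replicate 2 and 4 without isopomiferin replicate 3. Of 76 members tested here and with isopomiferin in the third experiment, 4 were lower in both, which is 50% of the 8, where 56.6% of the 76 were lower in the third experiment. At 3 µM, 5 members were higher after 6 h (ATP5F1E, NDUFS8, NDUFB11, NDUFS7 and NDUFV1), and NDUFS1 was lower by 0.15. The share of members higher, 6.49%, was below the 9.75% of all genes called higher. ATP5F1E, with 0.33 ± 0.10, had the largest of these changes. That count went from 0 without isopomiferin replicate 1 to 10 without DMSO replicate 1, and was 1 without DMSO replicate 2, 3 without DMSO replicate 3 and 8 without isopomiferin replicate 2. No member passed with pomiferin at 3 µM and 6 h, where 5.55% of all genes were called higher or lower and 6 members had an unadjusted p below 0.05, and DESeq2 called 0 as well.

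At 3 h no member passed with either compound at 10 µM, where 4.19% of all genes were called higher or lower with isopomiferin and 4.19% with pomiferin. Of the members, 5 and 6 had an unadjusted p below 0.05, and DESeq2 called 0 with either compound. Without DMSO replicate 3 the count with isopomiferin was 1. ATP5MC1 was at 75.2, 77.7 and 78.1 CPM with pomiferin and at 74.3, 77.5 and 77.5 CPM with DMSO, and the groups overlapped. Its change was 0.01 ± 0.06. The difference between the effects at 6 h and 3 h, tested as an interaction, was lower than 0 for 5 of 77 members with pomiferin, where 4.83% of all genes were, and for 1 of 77 with isopomiferin, where 1.69% of all genes were. For ATP5MC1 this difference was −0.42 ± 0.09 with pomiferin (adjusted p = 0.00129) and −0.33 ± 0.09 with isopomiferin (adjusted p = 0.0213). The other members with pomiferin were ATP5MC3 (−0.29), NDUFB4 (−0.25), ATP5MF (−0.24) and ATP5F1C (−0.19). The share of members with pomiferin, 6.49%, was close to that of all genes, so no pattern among the members is read from this count. The count of 5 with pomiferin was 3 without pomiferin 3 h replicate 2, DMSO 6 h replicate 1, DMSO 6 h replicate 2 or pomiferin 6 h replicate 1, and 2 without pomiferin 3 h replicate 3, pomiferin 6 h replicate 2, DMSO 3 h replicate 1 or DMSO 3 h replicate 3. The count of 1 with isopomiferin was 0 without replicates 1 or 2 at 3 h, replicates 2 or 3 at 6 h, DMSO 6 h replicate 1 or DMSO 3 h replicate 1, and 2 without DMSO 6 h replicate 2 or isopomiferin 6 h replicate 1.

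The null analog at 10 µM gave a reference of matched dose and time. Against DMSO at 6 h, 0 of 77 members passed with it by edgeR and 0 by DESeq2, where 0.965% of all genes were called higher or lower, and 5 members had an unadjusted p below 0.05. ATP5MC1 was at 70.3, 70.5 and 79.4 CPM with the null analog, overlapping with DMSO, a change of −0.11 ± 0.06 (adjusted p = 0.52). Against the null analog, pomiferin had 21 of 77 members lower, where 14.7% of all genes were, and 2 higher, NDUFV1 (0.13) and NDUFA4L2 (1.91 ± 0.43). Members lower in this direct comparison included NDUFV2 (−0.33), NDUFB4 (−0.31), ATP5MC1 (−0.30) and ATP5MC3 (−0.26). NDUFA4L2, a paralog of NDUFA4 that is induced by low oxygen, was at 0.9 to 1.1 CPM with pomiferin and at 0.1 to 0.4 CPM with the null analog. These levels are low, and against DMSO pomiferin raised no member at 6 h. NDUFA4L2 may have passed the filter on low counts only through libraries in which it was high. Nothing is therefore read from its call. Isopomiferin had 4 of 77 members lower than the null analog, where 12.3% of all genes were, with ATP5MC1 lower by 0.23, and 1 higher. The share of members lower, 5.19%, was below that of all genes. Isopomiferin and pomiferin were also compared with each other at 10 µM and 6 h. Of 77 members, 4 were higher with isopomiferin, where 5.55% of all genes were called higher, and none was lower. They were NDUFB6 (0.21), NDUFA12 (0.19), ATP5MC3 (0.16) and ATP5PD (0.16). The share of members, 5.19%, was close to that of all genes, so no pattern among the members is read from this count. ATP5MC1 differed by 0.07 with a 95% interval from −0.07 to 0.20. The count of 21 against the null analog was 10 without pomiferin replicate 1, 10 without pomiferin replicate 2, 13 without null analog replicate 1 and 11 without null analog replicate 2. The count of 4 for isopomiferin against the null analog was 1 without isopomiferin replicate 2, 0 without isopomiferin replicate 3, 2 without null analog replicate 1 and 1 without null analog replicate 2. The count of 4 for isopomiferin against pomiferin was 1 without isopomiferin replicate 2 and 0 without isopomiferin replicate 1, pomiferin replicate 1 or pomiferin replicate 2. Both counts of 4 were 0 when only the compared libraries were fitted.

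**Figure D3:**
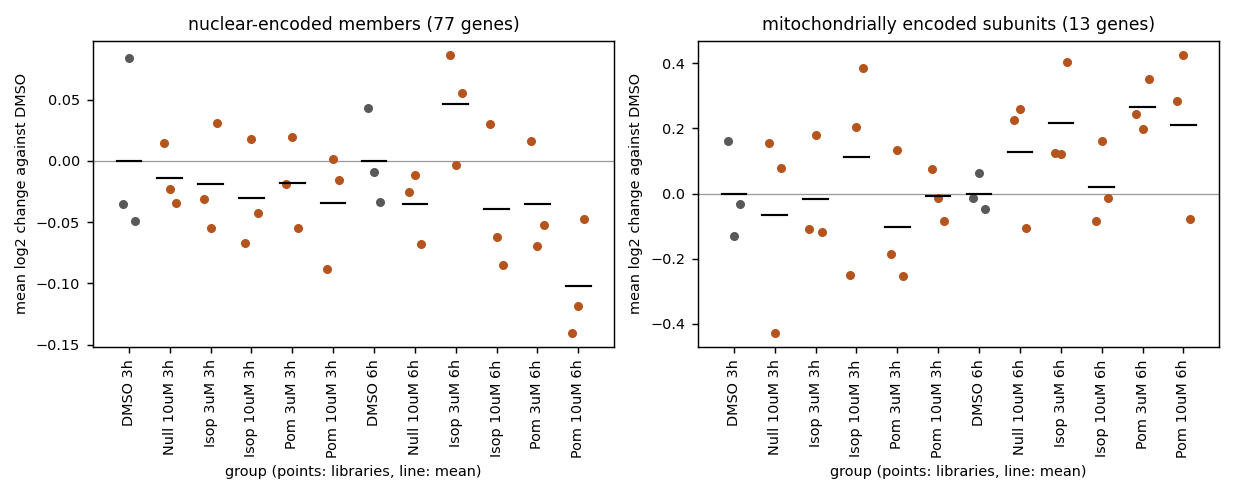
Mean log2 change against DMSO of the same time over the 77 nuclear-encoded members (left) and the 13 mitochondrially encoded subunits (right) for each TruSeq library (points), with group means as lines. Pomiferin at 10 µM and 6 h has the lowest nuclear mean, −0.10, with all 3 libraries below the DMSO libraries, while the mitochondrially encoded mean of the same group is 0.21.

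NVP-BEZ-235 at 0.6, an inhibitor of PI3K and mTOR kinases, lowered 48 of 77 members in the third experiment and raised none, where 6.95% of all genes were called lower; the member median was −0.71 and that of all genes −0.00. Complex I had 26 of 37 members lower and a median of −0.93, beside 7 of 9 in complex IV, 4 of 9 in complex III, 11 of 18 in complex V and 0 of 4 in complex II. NDUFS6, which binds zinc beside the matrix arm, was at 57.3, 72.6 and 79.7 CPM against 194 to 246 CPM (median 237) in the DMSO wells, a log2 change of −1.72 ± 0.14 (adjusted p = 2.32e-16). NDUFS5 was at 111, 143 and 143 CPM against 328 to 410 CPM, and NDUFB7 at 21.5, 28.4 and 32.6 CPM against 55.6 to 90.3 CPM. The groups of all 3 genes were apart. CYCS, cytochrome c itself, which the symbol rule leaves out, was at 93.6, 121 and 131 CPM against 333 to 439 CPM and fell by 1.76 ± 0.12. The mean of ribosomal protein genes was 0.38 ± 0.06 in these libraries, and that of the respiratory chain members −0.66 ± 0.01. ATP5MC1 averaged 95.2 CPM. Copanlisib, a PI3K inhibitor, gave a member mean of −0.58 ± 0.08. Neuroblastoma markers were lower in 1 of 9 genes and higher in 1 with NVP-BEZ-235.

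CX-4945, an inhibitor of CK2, lowered 29 of 77 members at dose 10, where 8.96% of all genes were called lower, and raised 1. Complex V held 11 of the lower members and complex I 14. ATP5MC1 was at 55.0, 57.2 and 61.4 CPM, far below the 177 to 295 CPM of the DMSO wells, a log2 change of −1.92 ± 0.20 (adjusted p = 6.31e-12). NDUFA11, a membrane-arm subunit, was at 50.5, 57.2 and 59.0 CPM against 106 to 272 CPM, and NDUFS6 at 82.2, 102 and 109 CPM against 194 to 246 CPM, again without overlap. The member that rose was UQCRHL (1.28 ± 0.38), whose reads cannot be told from those of UQCRH with certainty. At dose 3.3 the member mean was −0.02 ± 0.02, inside the DMSO range, and at 10 it was −0.46 ± 0.06.

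JQ1 at 10, which blocks BET bromodomain proteins, lowered 25 of 77 members, where 9.34% of all genes were called lower, 16 of them in complex I. NDUFC1, a small membrane-arm subunit, was at 48.1, 52.1 and 74.4 CPM against 115 to 193 CPM and fell by 1.42 ± 0.19. ATP5MC1 was at 80.1, 87.6 and 91.0 CPM and fell by 1.35 ± 0.19, and NDUFB4 fell by 1.04 ± 0.15. These groups did not overlap with the DMSO wells. The count was 16 without JQ1 replicate 2. With palbociclib at 10, an inhibitor of CDK4 and CDK6, 3 of 77 members passed, and its member mean was −0.07 ± 0.08. The share of members that passed, 3.9%, was below the 7.98% of all genes called higher or lower. ATP5IF1 rose with it, to 270, 284 and 356 CPM against 143 to 227 CPM (0.63 ± 0.13), and ATP5ME rose by 0.58 ± 0.13. NDUFB9 fell by 0.39 ± 0.10. The treatments of the third experiment share their DMSO wells, so these lists are not independent of each other.

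Flavopiridol, an inhibitor of CDK9 and other cyclin-dependent kinases that blocks transcription elongation, moved members in both directions. At dose 3, 24 of 77 members were higher, where 8.87% of all genes were, and 22 were lower, where 12.3% of all genes were. With the size factors of DESeq2 in place of edgeR's TMM the split was 32 higher and 17 lower, and the median of all genes moved by 0.19 on the log2 scale, from −0.30 to −0.10. The member median was 0.16 with TMM and 0.35 with the other scaling, above the all-gene median in both. In mean log2 CPM 66.4% of all genes were below 0, beside 38 of 77 members. CPM values are shares of the counts of a library. A gene said here to be higher or to rise has a higher share, which need not mean more of its RNA per cell. The flavopiridol libraries were the shallowest of the experiment, with a median of 729614 counts against 4283540 in the DMSO wells, and the part of depth in the split was not tested beyond a thinning of all libraries to 1 total, which gave 28 higher and 10 lower.

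Complex IV lay on the higher side, with 6 of 9 members higher and COX5A lower, and a mean of 0.66 ± 0.08 (SD, n = 3). Complex II lay on the lower side, with 3 of 4 members lower and a mean of −1.08 ± 0.46. Complexes I, III and V were divided, with 7 higher and 13 lower, 3 higher and 1 lower, and 8 higher and 4 lower. UQCR11, a small subunit of complex III whose promoter is printed above, was at 1529, 1535 and 1578 CPM against 379.9 to 568.3 CPM (median 477) in the DMSO wells, a log2 change of 1.66 ± 0.12 (adjusted p = 2.77e-19). COX8A, a small membrane subunit of complex IV, was at 1540, 1585 and 1618 CPM against 479 to 726 CPM, a change of 1.51 ± 0.12. In the same complex III, UQCRFS1, the Rieske iron-sulfur protein, was at 14.5, 17.0 and 19.2 CPM against 176 to 271 CPM (median 203), a change of −3.65 ± 0.25 (adjusted p = 1.20e-20), the deepest of all members. Each of these 3 genes had no overlap between groups. SDHD was at 5.09, 8.71 and 14.5 CPM against 26.6 to 50.7 CPM and fell by 2.13 ± 0.39, and SDHB was at 8.71, 25.4 and 32.2 CPM against 39.1 to 66.0 CPM and fell by 1.27 ± 0.33. SDHA passed narrowly (−0.67 ± 0.25, adjusted p = 0.048) with overlapping groups, and SDHC changed by −0.07 ± 0.43. ATP5MC1, which fell with pomiferin, isopomiferin, CX-4945 and JQ1, was at 323, 331 and 361 CPM, above all DMSO wells, and rose by 0.62, while its sister ATP5MC3 fell by 1.21.

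Other small membrane subunits that rose were NDUFA3 (1.45), NDUFA1 (1.38) and COX6C (1.30), while NDUFC1, NDUFB5 and NDUFB4, also of the membrane arm, fell. NDUFC1 fell by 1.69 and NDUFB5 fell by 1.62, and NDUFB4 was at 150, 178 and 201 CPM against 396 to 589 CPM, with no overlap. The mitochondrially encoded subunits rose in 11 of 13 genes, with MT-CO1 at 7819, 10433 and 11760 CPM against 4513 to 5679 CPM. COX4I1, outside the symbol rule, rose to 1045, 1054 and 1301 CPM from 424 to 642 CPM. In contrast, the assembly factors, proteins that build the complexes and are not part of them, fell in 18 of 50 genes and rose in 2. Over all genes tested, 12.3% were called lower and 8.87% higher. NDUFAF4 was the lowest assembly factor at −3.89 ± 0.22. Ribosomal protein genes had a mean of 0.19. Neuroblastoma markers fell in 4 of 9 genes and rose in 2.

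Dactinomycin, a DNA intercalator that blocks RNA synthesis, was measured in the first experiment, with its own controls. Complex IV was at 0.81 and 0.75 on the duplicate plates and complex II at −1.83 and −1.38, while the mean over all members was 0.02 and −0.23. UQCR11 was at 1483 and 1860 CPM and COX8A at 1973 and 2317 CPM. UQCRFS1 was at 341 CPM in one duplicate and 23.1 CPM in the other, so its duplicates disagree. SDHA was at 13.0 and 0 CPM and SDHD at 0 and 13.8 CPM. These libraries had only 398391 and 263266 counts, and with 2 libraries per compound no test was made. With the other size factors complex IV averaged 1.19 in place of 0.78. Higher values are higher shares of a library here too, and need not mean more RNA per cell.

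**Figure D4:**
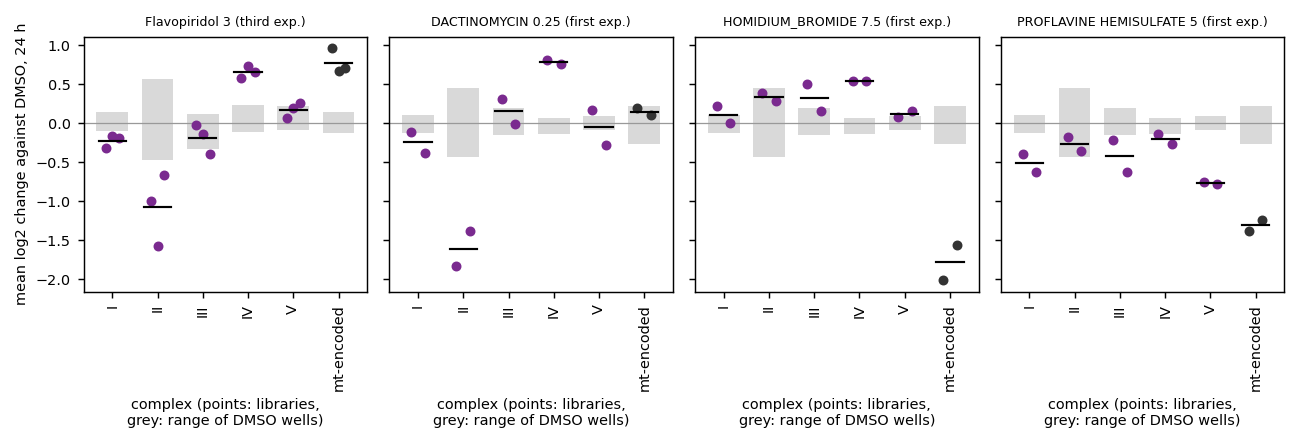
Mean log2 change against DMSO by complex and for the mitochondrially encoded subunits, for each library (points) of flavopiridol (the third experiment) and of dactinomycin, homidium bromide and proflavine hemisulfate (first experiment), with group means as lines and the range of the DMSO wells in grey. With flavopiridol and dactinomycin complex IV lies above the grey range and complex II below it, while with homidium bromide and proflavine the mitochondrially encoded subunits lie below it.

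In the second experiment the compound labelled NSC3905 at 3 mM lowered 29 of 77 members after 24 h, where 5.96% of all genes were called lower, with 16 in complex I and 9 in complex V. Those in complex V include ATP5S (−1.08), which is counted there by its older symbol only. NDUFA7, an accessory subunit, was at 235, 251 and 298 CPM against 442 to 708 CPM in the controls and fell by 1.09 ± 0.16 (adjusted p = 6.46e-08). ATP5G1 was at 146, 174 and 194 CPM against 270 to 324 CPM. Neither gene overlapped between the groups. The count was 17 without NSC3905 replicate 1 and 18 without replicate 2. No neuroblastoma marker (0 of 8) passed in the same libraries.

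NDUFA4L2, which low oxygen is known to induce through HIF1 and which is known to lower complex I activity, was read with NSC3905 and hardly at all in the controls. At 6 h it had 0 counts in all 6 control libraries, 3, 7 and 20 counts with NSC3905 at 1 mM, and 46, 57 and 29 counts at 3 mM. The levels at 3 mM were 19.1, 37.8 and 45.0 CPM. Against a floor of 3 counts over the 6 controls the pooled level was 27.2-fold higher at 1 mM and 100.2-fold higher at 3 mM. These ratios make no allowance for the spread between the NSC3905 libraries. At 24 h NDUFA4L2 was at 101, 144 and 187 CPM at 1 mM and at 146, 158 and 166 CPM at 3 mM, while the 6 controls held 2 counts in all. The ratio was 712 (95% counting interval 196 to 5898) at 1 mM and 786 (217 to 6502) at 3 mM. No NSC3905 library overlapped with a control at either time. The gene passed the filter on low counts only through the libraries in which it was high, so that its call is no support, and DESeq2 gave it no adjusted p at 6 h. It is the whole of the count of 1 of 77 members higher at 6 h and 3 mM, where 1.76% of all genes were called higher, and nothing about the members is read from that count. Its paralog NDUFA4 was at 728, 1517 and 1750 CPM at 6 h against 532 to 1842 CPM in the controls, which overlapped, and changed by −0.61 ± 0.31 at 24 h without passing (adjusted p = 0.19). With the other compounds of the second experiment tested at 24 h, NDUFA4L2 reached at most 6.9 CPM, with NSC305798. The first experiment, with other plates and controls, held NSC3905 at 5 for 24 h, and there NDUFA4L2 had 517 counts of 2669971 in one duplicate and 402 counts of 1959353 in the other, against 0 to 4 counts in each of the 8 DMSO wells. Among its 90 compounds only NSC139021 at 1 came near, with 241 and 186 counts of NDUFA4L2, and no other library exceeded 16.3 CPM of its own total. Both compounds were high in both duplicates, without overlap with the DMSO wells, and NSC139021 was named after its values were seen. The member mean with NSC3905 at 3 mM was 0.17 ± 0.07 at 6 h, above all controls, and −0.34 ± 0.04 at 24 h, below all of them, and this difference between times was not tested. Both means count NDUFA4L2, which raises them, so the place of the 6 h mean above all controls is no support. The median change in log2 CPM over the members was 0.13 at 6 h and −0.45 at 24 h.

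Narasin, an ionophore that carries cations across membranes, lowered 10 of 77 members at 1 mM and 24 h, where 4.74% of all genes were called lower, and none at 6 h, where 0.349% of all genes were called higher or lower, 6 members had an unadjusted p below 0.05 and DESeq2 called 0. ATP5G3, the older symbol of ATP5MC3, was at 374, 410 and 451 CPM against 538 to 751 CPM. NSC305798 at 5 mM lowered 13 of 77 members, where 3.48% of all genes were called lower, with ATP5G3 at 361, 383 and 411 CPM and NDUFB3 lower by 0.91. The groups of ATP5G3 did not overlap with the controls for either compound. The narasin count was 5 without narasin replicate 2 and 4 without replicate 3, and the NSC305798 count was 6 without its replicate 1 and 5 without replicate 2. Methylene Blue, a dye that can take up and pass on electrons, lowered no member at 2 mM and 24 h, where 0.563% of all genes were called higher or lower, and 6 members had an unadjusted p below 0.05. Sirolimus, an inhibitor of mTOR complex 1, lowered none at 4 mM, where 0.0607% of all genes were called higher or lower and 6 members had an unadjusted p below 0.05; without sirolimus replicate 1 the count was 1. DESeq2 called 0 members with Methylene Blue and 0 with sirolimus. Podofilox, which blocks microtubule assembly, gave a member mean of −0.35 ± 0.11 at 1 mM and 24 h, where the controls ran from −0.04 to 0.07.

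Across the 90 compounds of the first experiment, ranked by the mean over members of 2 duplicates, mefloquine came lowest, but 1 of its libraries had only 38670 counts and a mean of −2.11, and the other, with 1306289 counts, was at −0.29. Proflavine hemisulfate, an intercalating acridine, was at −0.42 and −0.60, and isopomiferin followed. The highest mean belonged to homidium bromide (ethidium bromide), an intercalator known to block transcription of mitochondrial DNA, at 0.26 and 0.13. With homidium bromide the mitochondrially encoded subunits were at −2.01 and −1.55 in the same libraries, and MT-ND4 was at 9910 and 13586 CPM against 38996 to 78628 CPM in the DMSO wells. Nuclear-encoded complex IV was at 0.54 and 0.54. With proflavine the mitochondrially encoded subunits were also low, at −1.38 and −1.24, so the nuclear members were on opposite sides of 0 with the 2 intercalators while the mitochondrial ones were below the controls with both. Among ionophores, gramicidin was at −0.28 and −0.43, monensin at −0.05 and −0.23 and narasin at −0.09 and −0.06. Each compound has 2 libraries, so these values carry no test.

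**Figure D5:**
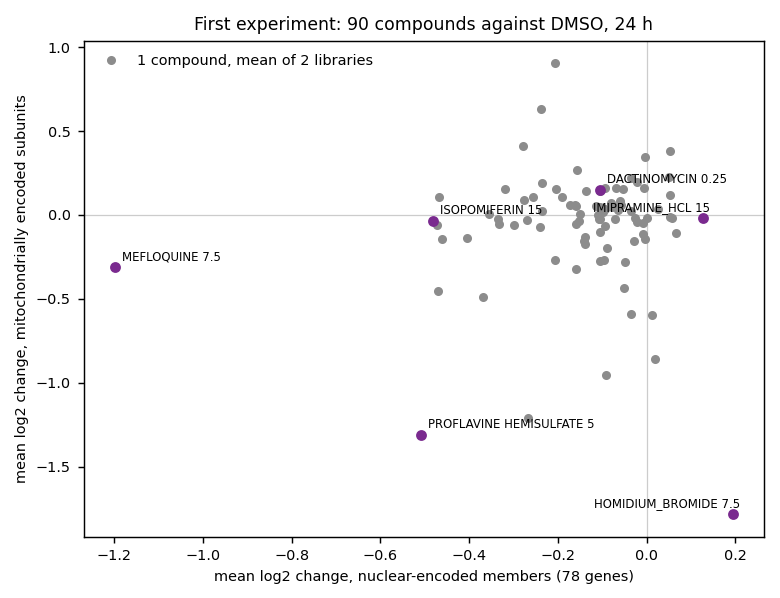
Mean log2 change over the 78 nuclear-encoded members (x axis) and over the mitochondrially encoded subunits (y axis) for each of the 90 compounds of the first experiment, as the mean of 2 libraries. Homidium bromide lies at the lower right, with nuclear values of 0.26 and 0.13 and mitochondrial values of −2.01 and −1.55 in its libraries, and isopomiferin lies to the left near a mitochondrial change of 0.

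Assembly factors were also measured. Of 50 tested in the third experiment, 29 fell and 2 rose with pomiferin at 10 (median −0.66), 14 fell with isopomiferin at 15, 14 fell and 2 rose with CX-4945, 15 fell and 2 rose with JQ1 and 13 fell and 1 rose with NVP-BEZ-235. Over all genes tested, 15.1%, 9.43%, 8.96%, 9.34% and 6.95% were called lower, in the same order. UQCC3, which helps build complex III, was at 6.69, 8.01 and 8.19 CPM with pomiferin against 22.0 to 37.6 CPM and fell by 2.00, and UQCC2 fell by 1.34. At 6 h in the TruSeq set 24 of the 50 were lower with pomiferin, where 15.4% of all genes were called lower, and 4 higher. The shares of all genes called higher are not given for these treatments, so nothing is read from the counts of assembly factors that rose. Of the regulators of mitochondrial gene expression, TFAM, which packages and transcribes mitochondrial DNA, was at 20.9, 28.7 and 37.0 CPM with pomiferin against 37.6 to 88.8 CPM in the DMSO wells and fell by 1.13 ± 0.33. TFAM also fell with isopomiferin at 15 (−1.17) and NVP-BEZ-235 (−0.93). GABPB1, a subunit of GABP, and CREB1 rose with pomiferin by 0.68 and 0.80, and YY1 fell with NVP-BEZ-235 by 0.73. CYC1, the cytochrome c1 subunit of complex III that the symbol rule leaves out, was at 24.1, 28.7 and 37.5 CPM with pomiferin against 60.9 to 83.9 CPM and fell by 1.28 ± 0.20.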

How the data were processed

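RNA was measured by PLATE-seq, a pooled 3′-end method, in the first 3 experiments and by TruSeq in the deep set. The deposited values are counts per gene, whole numbers that the authors made from their reads with STAR against GRCh38, per the submitters' processing notes; versions, the counting tool and the annotation are not given in the sources used here. Whether the counting used strand is not given either.

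Groups came from the labels. Counts were fitted with edgeR 4.0.16 in R 4.3.3 (filterByExpr with a minimum count of 10, TMM scaling, quasi-likelihood test, Benjamini-Hochberg adjustment over all genes tested, threshold 0.05), in 1 fit over all groups for the third experiment, for the TruSeq set and for each time of the second experiment. The script was tested on simulated counts with known changes. False calls were 5 of 150 with the TruSeq settings and 15 of 81 with those of the third experiment. They were 3 of 69 with those of the second experiment at 24 h. In the same order, 52, 20 and 18 of 67 changes of 2-fold were found. Of 67 changes of 1.5-fold, 39, 6 and 5 were found. A member that did not pass may therefore still have changed. With the settings of the third experiment the share of false calls was above the threshold of 0.05. Members that passed there may thus include false calls, and short lists should be read with that limit. Treatments of the first experiment, with 1 library per plate, got no test and were set against the 4 DMSO wells of their plate. Means over members used log2 CPM with a prior count of 2, centred on the controls of the same experiment and time. CPM is not per length, so levels are not compared between genes. Differences are on the log2 scale, and intervals are 95%. Where members called higher are counted without the share of all genes called higher, nothing about the members is read from that count.

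The members, the gene lists and the rule for named genes were chosen with earlier results of these data known. Named are, in each comparison, the members that passed with the largest changes, up to 5 in each direction, and fixed core members. From the lists of assembly factors, regulators and subunits outside the rule, the 3 genes with the smallest p were named, and from the rankings the 3 lowest and 3 highest treatments and a set of compounds of known pharmacology. Other names (sister genes of ATP5MC1, the remaining subunits of complexes II and III, copanlisib) were chosen after their values were seen. Overlap between groups is described for named genes only, many of them picked for large changes. A lack of overlap therefore adds no support to their calls. The alternatives were other size factors (RLE), no filter, DESeq2 1.42.0, fits of the compared groups alone, a replicate block, other prior counts, summed CPM and each library left out; the older quasi-likelihood method and thinning to the smallest total were added after seeing the data. Intervals and floors (3 counts) cover counting error only. The 4 wells labelled without DMSO and the 3 mock libraries, whose labels conflict on time, were left out.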

Additional observations from a re-analysis of the deposited data

Results flagged for a closer look

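In the test for time, the change after 6 h was below that after 3 h for ATP5MC1 by −0.33 with isopomiferin and by −0.42 with pomiferin (log2, TruSeq set). With pomiferin the same difference was −0.29 for ATP5MC3, −0.25 for NDUFB4, −0.24 for ATP5MF and −0.19 for ATP5F1C. With NSC3905 the mean over members changed sides between times: at 1 mM it was 0.12 at 6 h and −0.14 at 24 h, and at 3 mM it was 0.17 at 6 h and −0.34 at 24 h, each library of a time being on its own side of 0. This difference was not tested, and the means count NDUFA4L2, which raises them at both times. In the third experiment DMSO replicate 6 stood apart from the other DMSO wells for the complex III mean, at −0.33. This was 1 of 30 groups and means examined, and chance sets apart about 1 in 20.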

How the results depend on the processing

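Of the alternative values for counts of members, 415 of 506 stayed within 1.5 times of the reported one; of those for means, 540 of 573 moved by less than the spread between libraries, and all 176 means with a library left out did. Of 1865 values for single named members none changed direction and 242 no longer passed. The cause was not tested for the changes that follow. Without the filter on low counts the counts were 3 (isopomiferin 3 µM, 6 h), 2 and 2 (isopomiferin against the null analog and against pomiferin), 15 (JQ1), 1 (palbociclib), 10 and 2 (pomiferin against H-Pomiferin and Pom Triacetate) and 1 (isopomiferin, 6 h, second experiment). The older quasi-likelihood method gave 2 for isopomiferin against the null analog. Fits of the compared groups alone gave 0 and 0 for isopomiferin against the null analog and pomiferin, and 8, 0 and 2 for pomiferin against H-Pomiferin, Pom Triacetate and osajin. DESeq2 gave 2 for the time difference with isopomiferin, 1 for isopomiferin at 6 h in the second experiment and 0 for NSC3905 at 6 h, where NDUFA4L2 had no adjusted p. Thinning all libraries to the smallest total, which leaves fewer counts to every gene, gave 21 (isopomiferin 15), 10 (CX-4945), 6 (JQ1), 27 (NVP-BEZ-235), 10 lower (flavopiridol), 1 (palbociclib), 4, 0, 1 and 30 (pomiferin against H-Pomiferin, Pom Triacetate, osajin and H-Osajin), 17 (NSC3905, 24 h), 7 (NSC305798), 1 (isopomiferin against the null analog) and 1 (isopomiferin, 6 h, second experiment).

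Means changed sign for flavopiridol (0.13 with RLE, 0.54 summed, 0.26 thinned), palbociclib (0.061 thinned), H-Osajin (0.13 summed) and dactinomycin (0.27 with RLE, 0.51 summed). With RLE other means were −0.33 (isopomiferin, second experiment), 0.28 (doxorubicin) and −0.28 (proflavine). Summed CPM gave −0.45 (isopomiferin, second experiment), −0.48 (podofilox), −0.44 (NSC3905), −0.34 (narasin), −0.43 (NSC305798), 0.43 (homidium), −0.49 (gramicidin), −0.33 (monensin) and −0.24 (narasin, first experiment). Thinned means were −0.33 (CX-4945), −0.49 (NVP-BEZ-235), −0.34 (isopomiferin, second experiment) and −0.26 (NSC305798). By complex, flavopiridol gave −0.44 for complex II (summed) and 0.85 (RLE), 0.37 (no filter) and 0.89 (thinned) for complex IV; dactinomycin gave −2.10 for complex II (prior count 0.5) and 1.19 (RLE), 0.66 (no filter) and 0.65 (summed) for complex IV; homidium gave 0.45 (no filter) and 0.72 (summed) for complex IV.

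With each library left out in turn, counts ran from 4 to 11 (isopomiferin 10 µM, 6 h), 18 to 32 (pomiferin 10 µM, 6 h), 0 to 10 (isopomiferin 3 µM), 0 to 1 (isopomiferin, 3 h), 10 to 19 and 0 to 5 (pomiferin and isopomiferin against the null analog), 0 to 4 (isopomiferin against pomiferin), 2 to 5 and 0 to 2 (time difference with pomiferin and isopomiferin), 16 to 26 (JQ1, and 28 without DMSO replicate 3.1), 11 to 27, 2 to 6 and 4 to 8 (pomiferin against H-Pomiferin, Pom Triacetate and osajin), 15 to 28 (isopomiferin, second experiment), 17 to 28 (NSC3905), 4 to 11 (narasin), 5 to 13 (NSC305798), 0 to 1 (sirolimus) and 0 to 1 (isopomiferin, 6 h, second experiment).

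Replicate numbers did not pair the libraries: residuals of libraries with the same number had median correlations of −0.0078, 0.0020, −0.00046 and 0.00070 in the TruSeq set, the third experiment and the second at 24 h and 6 h. A replicate block moved 0 of 33 counts by over 1.5 times, with 29 members lower for isopomiferin at 24 h in the second experiment, and of 120 named calls it lost ATP5MF (time difference, adjusted p = 0.0577), ATP5PD (isopomiferin against pomiferin, 0.0585), NDUFA8 (isopomiferin against the null analog, 0.0516), NDUFB3 (against H-Pomiferin, 0.0556) and UQCRHL (CX-4945, 0.0524). Depth limits what can be said of low members such as NDUFV2 and SDHD, which rest on few reads per library in the first 3 experiments. Without its shallowest libraries the first experiment gives mefloquine −0.29 from 1 library and dactinomycin no value.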
